A study of Mus musculus with 6 samples.

Results

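The 10 genes described here belong to the Notch pathway. They are the receptors Notch1 and Notch2, the ligand Jag1, the DNA-binding effector Rbpj, and the target genes Hes1, Hey1, Hey2, Heyl, Nrarp and Dtx1. They were found by matching their symbols, through Entrez numbers, to the rows of a deposited table of log2 expression values. All 10 had a row, among 23185 rows with a gene name and 25206 rows in all. The genes were chosen with the outcome of the comparison already known, so their values are given as a description and without p-values.

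The study measured mouse lines of group 2 innate lymphoid cells (ILC2s) on single-colour expression arrays, 3 for each of 2 groups. ILC2s are tissue lymphocytes that lack rearranged antigen receptors and secrete type 2 cytokines when they meet alarmins such as IL-33. All cells were of the C57BL/6J background, grew with both IL-33 and IL-2, each at 10 ng/ml, carried a lentiviral CRISPR construct with a GFP reporter (LentiV2CRISPRGFP) and were sorted as GFP+ cells at day 6 after transduction. The control group carried a non-target guide (Non-target Control) and the knockout group guides against CBFβ (CBFBeta knock out), the non-DNA-binding partner of the RUNX transcription factors. Both groups therefore share the cytokines, the vector and the sort, and the cells are cultured lines, not cells taken from tissue. The labels state neither the number of guides nor whether the 3 samples of a group were separate cultures, so the spread between arrays may be technical. The comparison asks what changes when CBFβ is disrupted in activated ILC2s.

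Notch receptors are cut at the cell surface and within the membrane after they bind a Delta or Jagged ligand on a neighbouring cell. The released intracellular part enters the nucleus and joins RBPJ and a Mastermind-like (MAML) coactivator, which turns RBPJ from a repressor into an activator. The HES and HEY genes are classical targets and encode basic helix-loop-helix (bHLH) proteins that repress other genes. In lymphocytes, Notch signals are best known for committing thymic progenitors to the T cell fate, and they also act on ILC2 precursors and on mature ILC2s.

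The arrays of each group were alike, with Pearson correlations across rows of 0.9946 to 0.996 within groups and 0.988 to 0.9908 between them, and per-array medians of 3.57 to 3.63. The targeted gene Cbfb was lower in every knockout array (7.69 to 7.91) than in every control array (8.53 to 8.73). Its transcript signal remained at 56.4% of the control level, and these values do not show how much CBFβ protein was lost. Of 12 ILC2 markers 10 had a named row, and 5 of these passed the test described below. The nuclear receptor gene Rora was higher in the knockout (2.22 on the log2 scale), and Icos (-0.78), Il7r (-0.56), Id2 (-0.35) and Il5 (-0.33) were lower. Gata3 at 10.58 and 10.68 and Klrg1 at 11.37 and 11.36, in control and knockout, were among the 5 that did not pass. The table has no detection calls. As a gauge of background, the means of 1082 olfactory receptor genes, which lymphocytes are not known to express, had a median of 1.7 and a 95th percentile of 3.39. All 10 ILC2 markers read above 3.39 in at least 1 group, though Thy1 only just, at 3.41 in both. Rora did so in the knockout alone (5.53), as its control mean of 3.32 lay just under this value. Differences near 3.39 can be understated, and levels of different genes are not compared because each row has its own probes.

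Of the 10 genes, 2 targets and 1 receptor were higher in every knockout array than in every control array. Hey1 was 3.69-fold higher in the knockout, Hes1 was 1.73-fold higher, and Notch2 was 1.37-fold higher. Notch1, Hey2, Heyl, Nrarp, Dtx1 and Jag1 had overlapping groups, and Rbpj was lower in all knockout arrays by 0.26 on the log2 scale. In the fit across all rows, 3 of the 10 genes passed an adjusted p of 0.05, all higher, where 9.75% of all rows passed, with 5.51% higher and 4.24% lower (limma with Benjamini-Hochberg adjustment). The groups did not overlap in 4 of the 10 genes, beside 27.5% of all rows. Since the genes were chosen on this comparison, nothing is read from these shares. Hes1 did not pass under several of the alternative settings given at the end. The median difference of the 10 genes was 0.19 on the log2 scale, and that of all rows was -0.00667. In bulk RNA of this kind, a difference in the share of cells that express a gene and a difference in RNA per cell cannot be told apart.

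**Figure D1:**
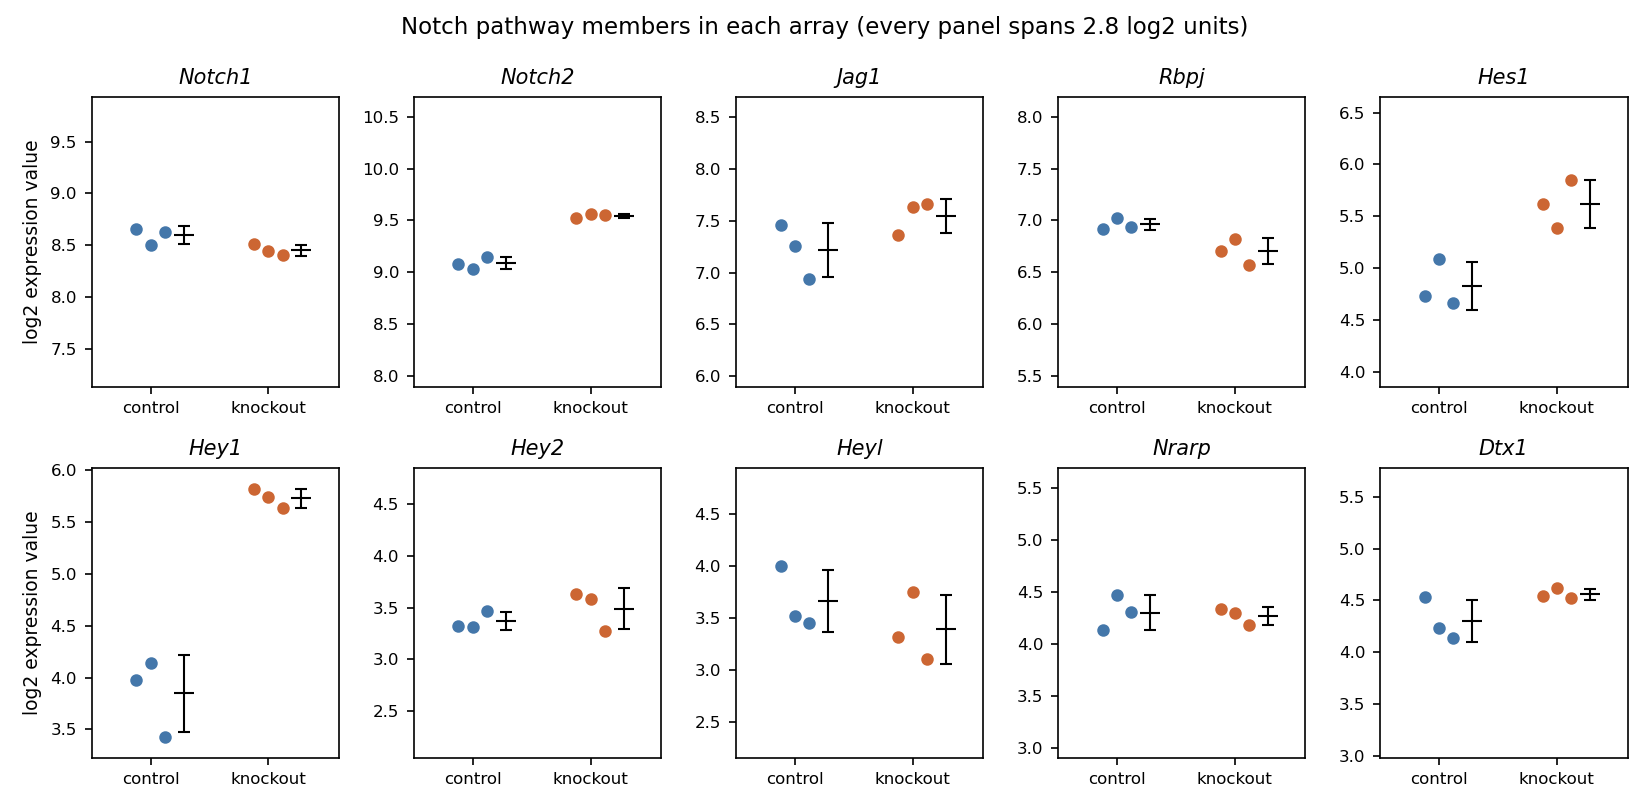
Log2 expression values (y axis) of the 10 Notch pathway genes in the 3 control arrays (blue) and 3 knockout arrays (orange). Points are arrays, from replicate 1 on the left to 3 on the right, black marks are group means with SD, and all panels span the same height. Hey1, Hes1 and Notch2 sit higher in every knockout array than in every control array, and Rbpj sits lower.

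Of the receptors, Notch2 was higher in the knockout, and Notch1 had overlapping groups. Notch1, the receptor that drives T cell commitment, read 8.66, 8.50 and 8.63 across control arrays and 8.51, 8.44 and 8.41 across knockout arrays. The lowest control array lay just below the highest knockout array, so the groups overlapped. The difference was -0.14 (95% interval -0.34 to 0.051), or 90.5% of the control level on a linear scale. Notch2, the receptor best known in lymphocytes for marginal zone B cells, read 9.08, 9.03 and 9.15 in the control arrays. In the knockout arrays it read 9.52, 9.56 and 9.55. The knockout arrays had an SD of 0.0208 (n = 3), and all lay above the control arrays. The difference was 0.46 with a standard error of 0.0786 (95% interval 0.28 to 0.64), from a mean of 9.09 ± 0.060 to 9.54 ± 0.021 (SD, n = 3).

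The proximal promoters of both receptors, of Rbpj and of Maml1, the MAML gene with the largest fall in the lists described further on, are shown because these genes sit at the receptor and nuclear steps of the pathway and differed in size or direction. Each is the 250 bases before a start site, from RefSeq on build GRCm38.p6, written 5′ to 3′ on the gene's strand, with capitals for a match to any motif searched.
Notch1, chr2:26503823-26504072, minus strand: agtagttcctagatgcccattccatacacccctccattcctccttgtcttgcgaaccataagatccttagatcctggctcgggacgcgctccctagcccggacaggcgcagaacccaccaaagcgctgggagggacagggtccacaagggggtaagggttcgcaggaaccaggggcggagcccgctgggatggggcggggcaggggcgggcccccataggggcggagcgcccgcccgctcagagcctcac
Notch2, chr3:98013288-98013537, plus strand: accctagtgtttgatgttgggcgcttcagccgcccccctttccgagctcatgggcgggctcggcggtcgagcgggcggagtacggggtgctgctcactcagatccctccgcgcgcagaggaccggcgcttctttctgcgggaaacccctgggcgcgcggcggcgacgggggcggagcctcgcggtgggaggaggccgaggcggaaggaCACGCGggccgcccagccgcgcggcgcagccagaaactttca
Rbpj, chr5:53590096-53590345, plus strand: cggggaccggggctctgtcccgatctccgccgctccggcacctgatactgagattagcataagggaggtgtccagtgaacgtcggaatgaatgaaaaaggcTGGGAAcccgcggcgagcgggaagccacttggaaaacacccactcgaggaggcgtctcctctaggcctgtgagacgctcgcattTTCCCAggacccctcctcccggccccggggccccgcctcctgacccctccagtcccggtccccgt
Maml1, chr11:50292337-50292586, minus strand: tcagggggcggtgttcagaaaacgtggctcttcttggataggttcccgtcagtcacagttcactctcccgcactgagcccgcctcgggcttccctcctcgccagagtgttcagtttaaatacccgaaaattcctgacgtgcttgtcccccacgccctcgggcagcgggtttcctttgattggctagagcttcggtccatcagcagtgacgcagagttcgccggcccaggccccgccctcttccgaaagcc
The motifs were TGGGAA for RBPJ, TGTGGT for RUNX, CACGTG for the E-box and CACGCG for the C-site that HES and HEY proteins can bind, each on both strands. No match of 1 motif overlapped that of another in these 4 sequences.

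The Notch2 window holds 1 C-site, 42 bases before the start, and the Rbpj window holds 2 RBPJ motifs, at 149 and 65 bases before it. The Notch1 and Maml1 windows hold none of the 4 motifs. Of the 10 genes, 7 had a promoter in the RefSeq table, in 8 windows, 2 of them for Rbpj and overlapping. Hey1, Hes1 and Heyl had none. The RBPJ motif was found in 2 of the 7 genes (Rbpj and Hey2), the C-site in 3 (Notch2, Dtx1 and Jag1) and the E-box in 1 (Nrarp). No window of the 7 held the RUNX motif in the form searched, TGTGGT. Of all 32851 windows in the table, 21.6% held the RBPJ motif, 14% the RUNX motif, 6.02% the E-box and 7.62% the C-site. The windows of the 7 genes were 56.4% to 72% G and C, and the median of all windows was 52.4%. A match says only that these letters are present, and variant forms of the motifs were not searched.

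Jag1, a Jagged ligand that activates Notch receptors on neighbouring cells, read 7.46, 7.26 and 6.94 across control arrays and 7.36, 7.63 and 7.66 across knockout arrays. Knockout replicate 1 lay below control replicate 1, so the groups overlapped. The difference was 0.33, with a 95% interval of -0.006 to 0.67, and the residual SD of 0.219 was larger than that of 84.1% of rows.

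Rbpj encodes the DNA-binding protein through which all canonical Notch signals act. It read 6.92, 7.02 and 6.94 across control arrays and 6.70, 6.82 and 6.57 across knockout arrays. All 3 knockout arrays lay below all 3 control arrays. The mean went from 6.96 ± 0.053 to 6.70 ± 0.13 (SD, n = 3), a difference of -0.26 (95% interval -0.48 to -0.051), which is 83.3% of the control level. It was not among the genes past the adjusted threshold.

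Hey1 had the largest difference of the 10 genes and the 12th largest of all 25206 rows in the upward direction. Its product is a bHLH repressor with a C-terminal YRPW-type motif, induced by Notch and also by bone morphogenetic protein signals in other cell types. It read 3.98, 4.14 and 3.43 across control arrays and 5.82, 5.74 and 5.64 across knockout arrays. The groups were far apart, and the spread lay mainly in the control group, where replicate 3 was lowest, near the olfactory gauge of 3.39. The mean went from 3.85 ± 0.37 to 5.73 ± 0.090 (SD, n = 3), a difference of 1.88 with a standard error of 0.172 (95% interval 1.49 to 2.28). On a linear scale this is 3.69-fold with an interval of 2.8 to 4.86. With each array left out in turn the difference stayed between 1.67 and 2.03.

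Hes1, the HES family repressor most widely used as a readout of Notch signalling, read 4.73, 5.09 and 4.66 in the control arrays. In the knockout arrays it read 5.62, 5.39 and 5.85. The groups did not overlap, with control replicate 2 the nearest to the knockout range. The mean went from 4.83 ± 0.23 to 5.62 ± 0.23 (SD, n = 3), a difference of 0.79 with a standard error of 0.152 (95% interval 0.44 to 1.14). Hes1 no longer passed the adjusted threshold without control replicate 1 or without control replicate 3, where the count of the 10 genes that passed was 2.

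The other 2 HEY genes did not follow Hey1. Hey2, a close relative best known from heart and arteries, read 3.32, 3.31 and 3.47 across control arrays and 3.63, 3.58 and 3.27 across knockout arrays. Its highest and lowest array were both knockout arrays, and the difference was 0.13 (95% interval -0.14 to 0.39). Heyl, the third HEY gene, read 4.0, 3.52 and 3.45 across control arrays and 3.32, 3.75 and 3.10 across knockout arrays. The groups overlapped widely, with a residual SD of 0.315 that was larger than in 96.1% of rows and a difference of -0.27 (95% interval -0.72 to 0.18). With an array left out, Hey2 differed by 0.058 (without knockout replicate 1) to 0.24 (without knockout replicate 3), and Heyl by -0.45 (without knockout replicate 2) to -0.095 (without control replicate 1). Both genes read close to the olfactory gauge of 3.39, so a change of either could be understated. The interval of Hey1 lies wholly above those of Hey2 and Heyl, a description only, as the genes were chosen with this comparison known.

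Nrarp and Dtx1 are feedback targets of Notch in lymphocytes. Nrarp, whose small ankyrin-repeat protein dampens the Notch complex, read 4.13, 4.47 and 4.31 across control arrays and 4.34, 4.30 and 4.18 across knockout arrays. Its knockout values lay within the range of the control values, and the difference was -0.03 (95% interval -0.28 to 0.22). Dtx1, which encodes the E3 ubiquitin ligase Deltex 1, read 4.53, 4.23 and 4.14 across control arrays and 4.54, 4.62 and 4.52 across knockout arrays. Control replicate 1 reached the knockout range and the other control arrays did not, for a difference of 0.26 (95% interval -0.00062 to 0.52). The interval of Nrarp does not reach the lower end of the interval of Hey1 or Hes1, and that of Dtx1 reaches that of Hes1. For the same reason, these intervals are a description and not a test between genes.

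**Figure D2:**
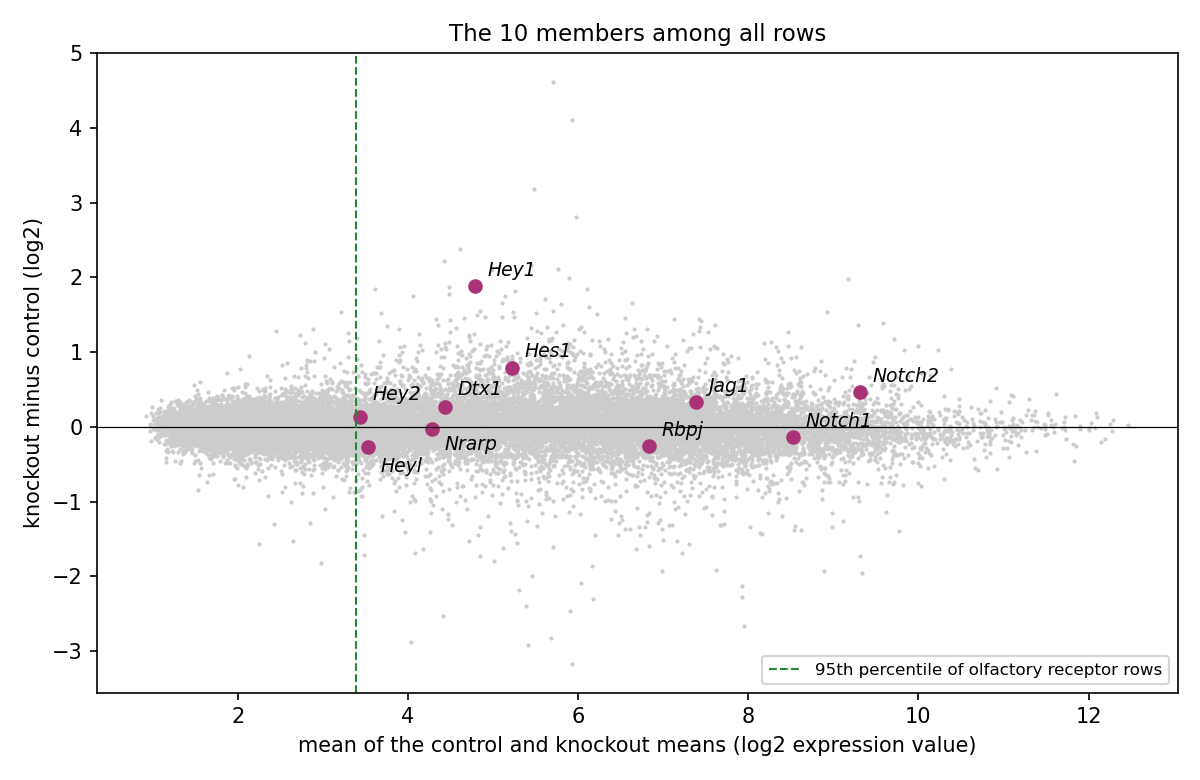
Difference between knockout and control (y axis, log2) against the mean of both group means (x axis, log2 expression value) for all 25206 rows in grey, with the 10 Notch pathway genes in purple. The dashed line is the 95th percentile of olfactory receptor rows, 3.39. Hey1 at 1.88 and Hes1 at 0.79 stand above most rows of their level, and Hey2 and Heyl lie at the background gauge.

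The rows whose profile over the 6 arrays lay nearest to that of Hey1 were Epb41l4b, Des, Ttc39a, Ebi3 and Ighm. Likeness was the root mean square distance after each row was centred on its own mean, so a close row has a difference of the same size. Epb41l4b, which encodes a band 4.1 family membrane-cytoskeleton protein, had a distance of 0.116 on the log2 scale. It read 4.59, 4.42 and 4.04 across control arrays and 6.22, 6.18 and 6.12 across knockout arrays. Like Hey1 it was lowest in control replicate 3, a likeness that the choice by distance favours. Des, the gene of the muscle intermediate filament desmin, followed at 0.209 and went from 2.69 to 4.54, a control level under the gauge. Ttc39a at 0.224, Ebi3, a subunit gene of IL-12 family cytokines, at 0.233, and Ighm, the immunoglobulin mu heavy chain gene, at 0.252 completed the 5.

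Markers of other cell types were read because Hey1, Hey2, Heyl and Jag1 are also expressed by endothelial and stromal cells. Of 10 endothelial markers, 7 read under 3.39 in both groups and 1 was lower in the knockout, Pecam1, which leukocytes also express. Their summed log2 level was 36.8 to 37.5 across control arrays and 35.8 to 36.8 across knockout arrays. Of 10 stromal markers, 5 read under 3.39 in both groups, and 1, the matrix gene Dcn, was higher (4.35 ± 0.21 and 5.0 ± 0.17; limma adjusted p = 0.0179). Their sums were 35.1 to 36.9 in both groups. T cell markers summed to 36.1 to 36.6 in control and 35.2 to 36 in knockout arrays, with 1 of 9, Trac, lower. None of 5 B cell and 7 myeloid markers passed, with sums of 12.1 to 12.7 and 12.4 to 13 for B cell markers and of 22.3 to 22.6 and 21.7 to 23.2 for myeloid markers. Of 7 mast cell markers 1 passed, Cpa3, a carboxypeptidase gene that was 7.53-fold lower in the knockout (6.87 and 3.96). The mast cell sums, which include Cpa3, were 20.4 to 21.1 in control and 17 to 18.9 in knockout arrays. The other mast cell markers differed by -0.27 (Kit) to 0.22 (Tpsb2), and none of them passed. Under 3.39 in both groups were 5 of 7 mast cell, 5 of 5 B cell, 5 of 7 myeloid and 4 of 9 T cell markers. No marker is at 0, as the log2 values start at 0.66. The part of Dcn-expressing, mast or other cells in the difference of Hey1 was not tested.

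Beyond these 10 genes, 94 further genes of the pathway were listed by role, and 88 of them had a named row. In the knockout 12 rose, 7 fell and 69 did not pass (limma, adjusted over all rows), so 21.6% of them passed beside 9.75% of all rows. All rows include many near background, as the median of all group means was 3.6. The lists were also chosen with earlier results of these data known, so nothing is read from these 2 shares. For the counts by role that follow, 5.51% of all rows rose and 4.24% fell. The median difference of the 88 genes was 0.053, beside -0.00667 for all rows. No further receptor or ligand gene passed, the largest rise was that of the trafficking gene Aak1, and the largest fall that of the coactivator gene Maml1. Without control replicate 2, 10 of the 88 passed, 8 higher and 2 lower. Counts without each other array in turn were 13 to 16, with 4 or 5 lower, and 10 of the 19 genes passed in each of these 6 fits.

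**Figure D3:**
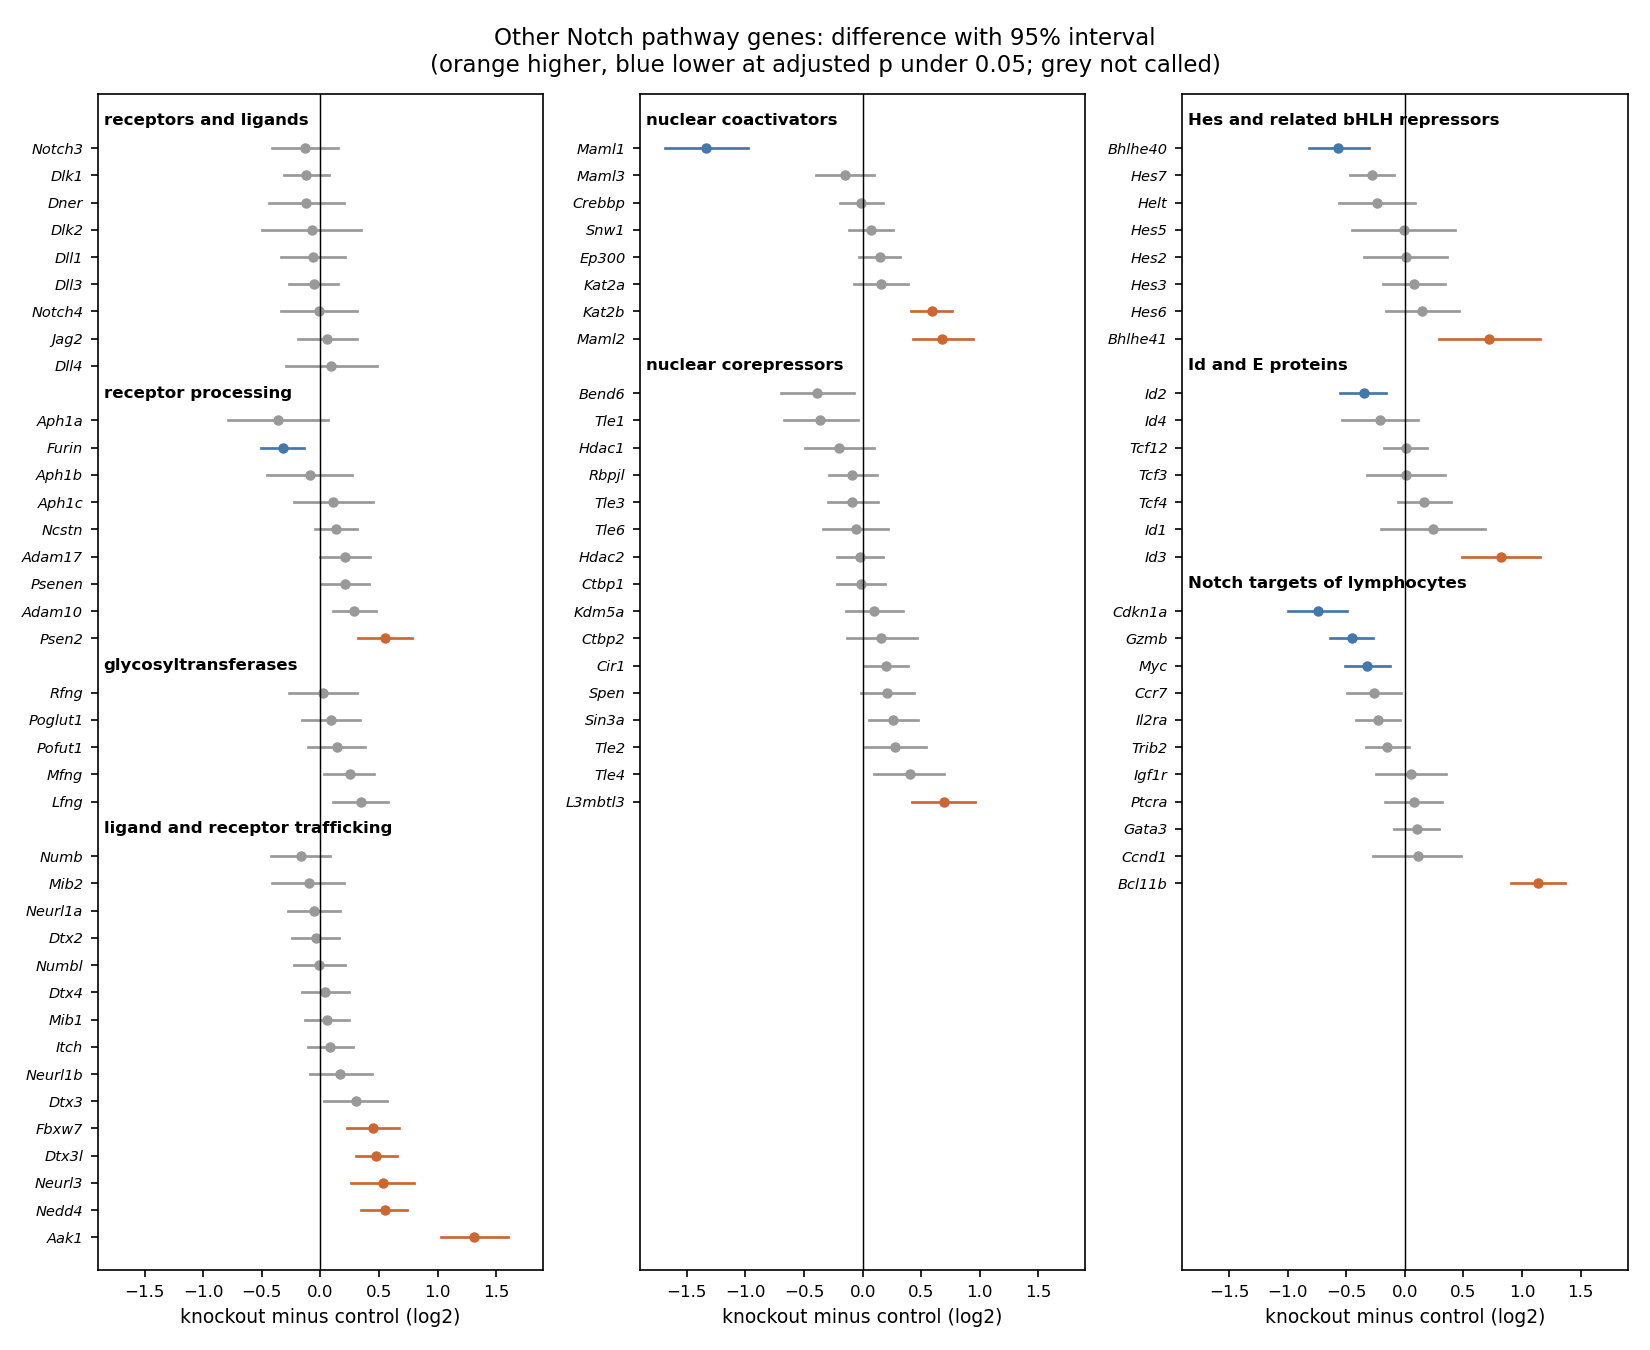
Difference between knockout and control (x axis, log2) with its 95% interval for each further pathway gene, grouped by role. Orange genes were higher and blue genes lower at an adjusted p of 0.05, and grey genes did not pass. All 9 receptors and ligands are grey and within -0.13 to 0.0933, and Aak1 at 1.31 and Maml1 at -1.34 lie at the ends.

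None of 9 further receptors and ligands passed the test. Notch3 read 3.66 and 3.53 in control and knockout, a difference of -0.13 (limma adjusted p = 0.607), and Notch4 read 3.98 and 3.96. The Delta ligand genes Dll1 (2.83 and 2.76) and Dll4 (2.57 and 2.66) and the Jagged gene Jag2 (3.05 and 3.10) read under 3.39 in both groups. So did Dner, a gene for a ligand-like neuronal protein, with a difference of -0.12. With 6 of the 9 under the background gauge, changes of these genes could be understated.

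Of 9 measured genes for receptor processing 1 rose and 1 fell. Psen2, a catalytic subunit of γ-secretase, rose from 7.76 ± 0.096 to 8.31 ± 0.13 (limma adjusted p = 0.0121). Furin, the protease that cuts Notch on its way to the surface, fell from 11.54 ± 0.021 to 11.22 ± 0.079 (adjusted p = 0.0442), but was called in none of the 6 leave-one-out fits, which each omit 1 array. Psen2 was lost in 1. Adam10, the sheddase that makes the first ligand-induced cut, read 8.13, 8.20 and 8.21 across control arrays and 8.43, 8.49 and 8.50 across knockout arrays. The groups did not overlap, yet it just missed the threshold (difference 0.29, limma adjusted p = 0.0532). The γ-secretase subunit genes Ncstn (0.13) and Psenen (0.21) did not pass either.

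None of 5 glycosyltransferases passed, with differences from 0.02 for Rfng to 0.35 for Lfng. Lfng, a Fringe enzyme whose sugar additions to Notch favour Delta over Jagged ligands, read 8.40 ± 0.16 and 8.75 ± 0.052 (difference 0.35, limma adjusted p = 0.0737, and 0.0118 to 0.215 over the alternatives). Mfng, another Fringe enzyme, read 7.72 and 7.97 (adjusted p = 0.156).

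Among 15 genes that move or degrade Notch and its ligands, 5 rose and none fell. Aak1, a kinase of clathrin adaptors that acts on Notch trafficking, read 6.37, 5.95 and 6.14 across control arrays and 7.50, 7.33 and 7.57 across knockout arrays. Every knockout array lay far above every control array. The difference was 1.31 (standard error 0.124), or 2.49-fold (limma adjusted p = 0.000699). Nedd4, an E3 ligase whose targets include Notch in flies, rose from 9.64 ± 0.058 to 10.18 ± 0.081 (adjusted p = 0.00631). Dtx3l, a Deltex relative active in interferon and DNA damage responses, rose by 0.47. Fbxw7, which marks the nuclear Notch fragment and MYC for degradation, rose from 6.18 ± 0.081 to 6.63 ± 0.13 (adjusted p = 0.0228). Neurl3, a Neuralized family E3 ligase gene, rose by 0.53. In the leave-one-out fits, Fbxw7 and Neurl3 were each lost in 5 of 6, while Aak1, Nedd4 and Dtx3l passed in all 6.

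The 3 Mastermind-like coactivators, which bridge RBPJ and the Notch fragment to histone acetyltransferases, went different ways. Maml1 read 7.69, 7.41 and 7.28 across control arrays and 6.34, 6.20 and 5.83 across knockout arrays. All knockout arrays lay well below all control arrays. The mean fell from 7.46 ± 0.21 to 6.12 ± 0.26 (SD, n = 3), a difference of -1.34 (standard error 0.155; limma adjusted p = 0.00177), and 39.6% of the control level remained. Maml2 read 6.14, 6.37 and 6.16 across control arrays and 6.73, 6.98 and 7.01 across knockout arrays. It rose by 0.68 (limma adjusted p = 0.00747) with no overlap. Maml3 read 6.23 and 6.08 (adjusted p = 0.479). Of the acetyltransferases, Kat2b (PCAF) rose from 7.09 ± 0.012 to 7.67 ± 0.025 (adjusted p = 0.00275), while Ep300 (0.15), Crebbp (-0.01) and Kat2a (0.16) did not pass. In all 2 of the 8 coactivator genes rose and 1 fell. Maml1, Maml2 and Kat2b passed with any array left out.

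Of 16 corepressor genes 1 rose and none fell. L3mbtl3, whose product binds RBPJ and helps to silence its targets, read 3.94, 3.69 and 3.95 across control arrays and 4.58, 4.37 and 4.70 across knockout arrays. It rose by 0.69 (limma adjusted p = 0.00943) without overlap, and passed with any array left out. Spen, the scaffold of the RBPJ repressor complex, differed by 0.21 and Sin3a by 0.26, and neither passed.

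**Figure D4:**
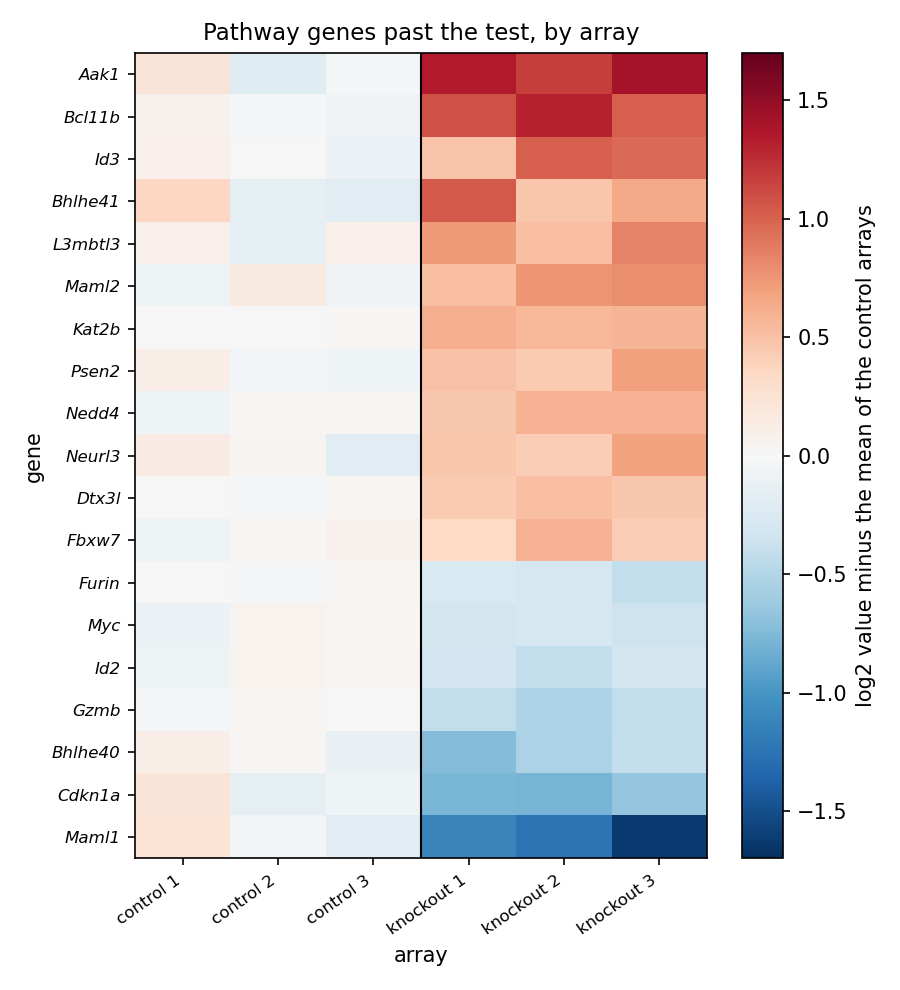
The 19 further pathway genes that passed the test (rows) in each of the 6 arrays (columns), as the log2 value minus the mean of that gene's control arrays, on a colour scale from blue (lower) to red (higher). Aak1 and Bcl11b are the reddest and Maml1 the bluest, and each gene has the same direction in all 3 knockout arrays.

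Other bHLH repressors related to HES and HEY had 1 rise and 1 fall among 8. Bhlhe40, a repressor gene with a role in cytokine production by activated lymphocytes, fell from 9.13 ± 0.12 to 8.57 ± 0.16 (limma adjusted p = 0.0159), and was lost in 2 of 6 leave-one-out fits. Its relative Bhlhe41 rose from 1.51 ± 0.30 to 2.23 ± 0.30 (adjusted p = 0.0493). Both of its levels lie under 3.39, and it was lost in 5 of these fits, so this rise is uncertain. Hes2, Hes3, Hes5 and Hes6 did not pass, and Hes7 differed by -0.28 (adjusted p = 0.0717). Hes2, Hes3 and Hes5 read under 3.39 in both groups.

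ID proteins bind E proteins, the bHLH activators of lymphocyte genes, and keep them off DNA. Id2, which all innate lymphoid cells need, fell from 11.01 ± 0.074 to 10.66 ± 0.061 (limma adjusted p = 0.0352). Id3 read 4.75, 4.67 and 4.56 across control arrays and 5.15, 5.67 and 5.62 across knockout arrays. It rose by 0.82 (limma adjusted p = 0.0106). The E protein genes Tcf3 (0.01), Tcf4 (0.16) and Tcf12 (0.0067) did not pass. Leaving out an array ended the call of Id2 in 5 of 6 fits and that of Id3 in none.

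Genes listed here as Notch targets of lymphocytes did not share a direction. Of 11 measured, 1 rose and 3 fell, with a median difference of -0.15. Bcl11b, which Notch helps to switch on in thymocytes and which ILC2s need for their identity, rose from 5.95 ± 0.068 to 7.09 ± 0.15 (limma adjusted p = 0.000549). Cdkn1a, the gene of the cell cycle inhibitor p21, fell from 10.03 ± 0.20 to 9.29 ± 0.072 (adjusted p = 0.00574). The granzyme gene Gzmb fell by 0.45, and Myc fell from 9.85 ± 0.085 to 9.53 ± 0.035 (adjusted p = 0.0493). Myc was lost in 5 of the 6 leave-one-out fits and Gzmb in 1. Gata3 (0.10, limma adjusted p = 0.566) and Il2ra (-0.23, adjusted p = 0.132) did not pass. Of the RUNX genes themselves, Runx1 rose from 6.78 ± 0.22 to 8.05 ± 0.18 (adjusted p = 0.00121), while Runx3 read 9.06 and 9.30 (adjusted p = 0.198).

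In the promoters of the 19 further genes that passed, 17 had a window in the RefSeq table, in 27 windows. The RUNX motif, searched as TGTGGT alone, was found in at least 1 window of 3 of them (Fbxw7, Kat2b and Gzmb). The RBPJ motif was found in 5 (Psen2, Nedd4, Aak1, Maml2 and Cdkn1a). The E-box was found in 2 (Psen2 and Bhlhe41) and the C-site in 3 (Furin, Nedd4 and Bhlhe41). Genes with several windows have more chances of a match, so these counts are not set against the shares over single windows.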

How the data were processed

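Total RNA from 6 samples, 3 control and 3 knockout by their titles, was biotin-labelled and hybridised to arrays, per the labels' protocols. The authors deposited log2 expression values. RMA and limma 3.14.4 are the tools in the submitters' processing notes, which give neither a role. The log2 scale was read from the values (0.66 to 12.5). RMA gives arrays like distributions, which would hide a shift common to most genes. The array annotation and genome build are not given in the sources used here.

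Values were used as deposited, for 25206 rows, of which 23185 had 1 gene symbol and 2021 none. All rows were fitted together in limma 3.58.1 (R 4.3.3) for knockout minus control, with moderated two-sided tests, 95% intervals and Benjamini-Hochberg adjustment at 0.05. The script was tested on simulated data, where it recovered 9 of 67 changes of 0.5 on the log2 scale. It recovered 56 of 67 changes of 1 and 65 of 66 changes of 2. The simulation gave 136 calls, 6 of them false, beside 2457 in the real data, so these shares need not hold there.

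The 10 genes and all lists were chosen with earlier results of these data known. Named are the 10 genes, the core-binding factor genes, 12 pathway genes, every listed pathway gene past the threshold (for a list with none, its 2 largest differences), the 5 rows nearest to Hey1, and ILC2 markers. Any others were named after their values were seen. Listed genes without a named row were not analysed here. Promoter windows omit the 50 bases after the start. Alternative settings blocked on replicate number, left out each array, repeated quantile normalisation, centred the columns, kept rows above the median level of 3.6, weighted arrays, or changed the prior, the test (no moderation) or the threshold.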

Additional observations from a re-analysis of the deposited data

How the results depend on the processing

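With each array left out, the count of rows that passed was 1307 to 1837 instead of 2457, the count of pathway genes 10 to 16 instead of 19, and the count of those that were lower 2 to 5 instead of 7. The ordinary test without moderation gave 1254 rows and 9 pathway genes (6 higher, 3 lower), and an adjusted p under 0.01 gave 966 rows and 9 pathway genes (7 higher, 2 lower). The cause was not tested for the ordinary test. Counts were higher with a trended and robust prior (3516 rows, 24 pathway genes), rows above the median level alone (3551 and 23), array weights (2727 and 21) and an adjusted p under 0.1 (3562 and 22). Whether replicate numbers pair the arrays could not be settled. Correlations of deviations were 0.0249, 0.00669 and 0.0539 for like numbers and -0.0651 to 0.0435 for unlike numbers. Control replicate 1 correlated best with knockout replicate 2 (0.0435), and control replicate 2 with knockout replicate 3 (0.0195). Only control replicate 3 correlated best with its like number (0.0539). Deviations were taken from the mean of each group of 3, so small values cannot exclude pairing. With the replicate number as a block, 1745 rows, 14 pathway genes (11 higher, 3 lower) and 2 of the 10 genes passed. Hes1 was the 1 lost, as it was under the ordinary test, an adjusted p under 0.01, and without control replicate 1 or 3. Over the alternatives that change the values or the arrays, Hey1 differed by 1.67 to 2.03, Hes1 by 0.68 to 0.93, Notch2 by 0.43 to 0.52, Rbpj by -0.33 to -0.2 and Jag1 by 0.19 to 0.45. Nrarp changed sign, from -0.12 to 0.053. With 3 arrays per group, and several genes near background, small changes may be missed.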
